A study of Mus musculus with 2 samples.

Results

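Long intergenic noncoding RNAs (lincRNAs) were described in 4T1, a line of mouse mammary carcinoma cells, cultured with M2 macrophages or without them. A gene was taken when GENCODE M21 gave it the biotype lincRNA, when it lay on an autosome, and when its TPM (an abundance normalised to transcript length and library total) averaged at least 1 over both libraries. Genes named Snhg, Gas5 and Zfas1, which are hosts of small nucleolar RNAs, were left out. This gave 126 lincRNAs of 51912 rows with Ensembl identifiers. The table held 4797 lincRNA rows at any level, of which 4118 were listed at 0 in both libraries, and 129 passed the minimum before 3 were left out by name. The lincRNAs were thus chosen by their mean level and not by the difference between the libraries.

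There were 2 libraries. In the co-culture library, 4T1 cells had been kept for 3 days in the lower chamber of a transwell with M2 macrophages in the chamber above. The control library came from 4T1 cells without macrophages, and the sources used here do not say whether an empty insert was used. Total RNA had been taken from the 4T1 cells with TRIzol and treated with DNase I, and the selection of RNA before sequencing is not stated either. The title of the co-culture library calls its cells 4T2, while its treatment label and its column say 4T1, and the treatment label was followed. Each group had 1 library, so no difference has a replicate check, no test was possible, and each value describes these 2 libraries only.

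LincRNAs are transcripts of RNA polymerase II that lie between coding genes, are usually spliced and polyadenylated, and hold no long conserved reading frame. Most are found at low levels and many stay in the nucleus, where some act on neighbouring genes, some hold protein bodies together and some bind RNA-binding proteins. A common class starts beside the promoter of a coding gene and runs the other way, and is called divergent.

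Co-culture gave a higher value for 85 of the 126 lincRNAs and a lower value for 41. At least 2-fold higher were 16, or 12.7%, and at least 2-fold lower were 8, or 6.35%, on the scale log2((co-culture TPM + 1)/(control TPM + 1)), which shrinks the ratios of lowly expressed genes. Among all 11258 detected genes, meaning those that average at least 1 TPM, 4.95% were 2-fold higher, 2.14% were 2-fold lower and 64.5% had any higher value. The lincRNAs thus had a larger share past 2-fold in both directions than all detected genes, with a share of any higher value close to it, at 67.5%. Detected protein-coding genes numbered 10367, with 4.28% at least 2-fold higher, 1.5% at least 2-fold lower and 65.3% with any higher value. Of the 238 other detected long noncoding genes, 14.7% were 2-fold higher, 8.82% were 2-fold lower and 54.6% had any higher value. The median log2 ratio was 0.33 over the lincRNAs, 0.17 over all detected genes, 0.17 over coding genes and 0.07 over the other long noncoding genes.

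The split of the calls depended on how the libraries were scaled. Scaling by the median ratio of abundant genes moved the median of all detected genes to 0.06 and gave 12 lincRNAs higher and 9 lower. Scaling by an unweighted trimmed mean of ratios (TMM) moved it to -0.03 and gave 8 higher and 10 lower, in place of 16 and 8. Relative to the median of all detected genes, the lincRNA median was 0.16 higher as deposited, 0.18 higher with the first scaling and 0.19 higher with TMM.

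**Figure D1:**
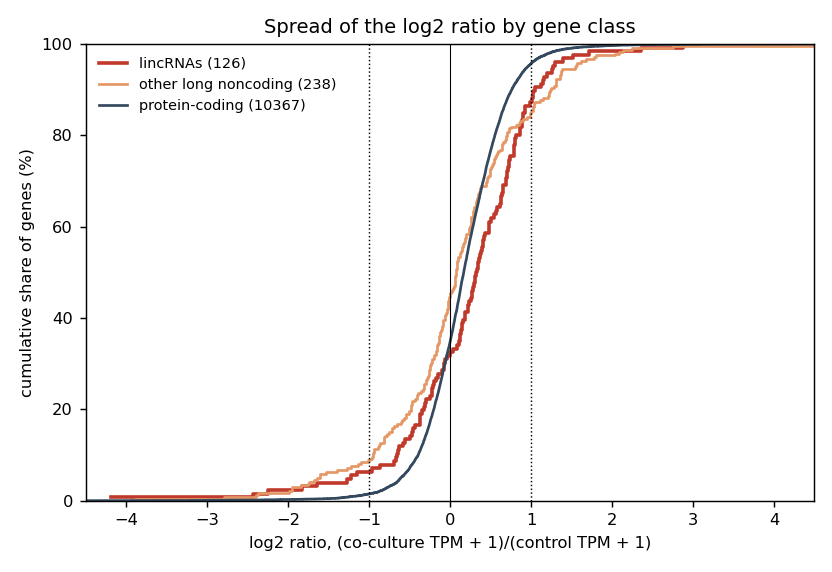
Cumulative share of genes (vertical axis, percent) by log2 ratio of co-culture to control (horizontal axis) for 126 lincRNAs, 238 other detected long noncoding genes and 10367 detected protein-coding genes. The noncoding curves are wider than the coding curve, with 12.7% of lincRNAs and 4.28% of coding genes at a log2 ratio of 1 or more.

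The lincRNAs were low in level, with a median of the mean TPM of 3.65 against 15.9 for coding genes. Among the 55 lincRNAs with a mean TPM of 1 to 3, 5 were 2-fold higher, 3 were lower and the median ratio was 0.26. In coding genes of that range the higher share was 5.53%, the lower share 1.79% and the median 0.29. Among the 36 lincRNAs of 3 to 10 TPM, 7 were higher, 2 were lower and the median was 0.57, beside 6.29%, 1.63% and 0.27 in coding genes. The 29 lincRNAs of 10 to 100 TPM held 4 higher and 3 lower with a median of 0.37, beside 3.47%, 1.23% and 0.13 in coding genes. None of the 6 lincRNAs above 100 TPM was past 2-fold in either direction.

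Of the 126, 105 had at least 1 TPM in both libraries, 13 in co-culture only and 8 in control only. The last 2 sets passed the minimum through 1 library, so their direction was set by the rule and they hold 4 of the 16 higher and 4 of the 8 lower lincRNAs. Just inside the minimum, D730003I15Rik had 0.75 TPM in co-culture and 1.26 in control, Gm13816 had 1.56 and 0.48, and Gm15706 had 1.24 and 0.80. Just outside it, AI480526 had 0.71 TPM in co-culture and 1.24 in control, Gm37494 had 0.16 and 1.79, and 5930430L01Rik had 1.05 and 0.88.

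**Figure D2:**
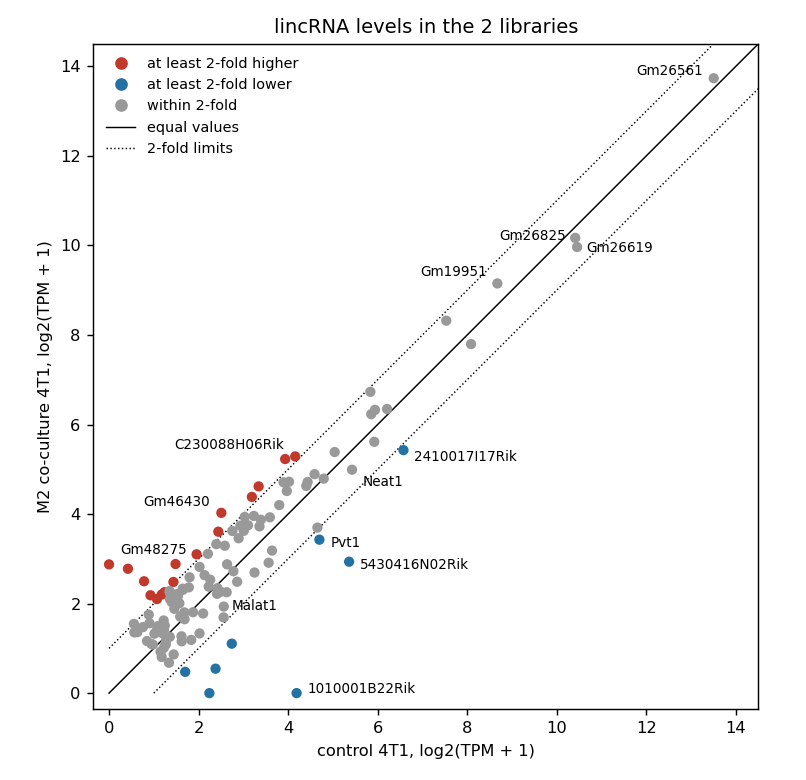
Level of each of the 126 lincRNAs as log2(TPM + 1) in co-culture (vertical axis) and in control (horizontal axis), 1 point per lincRNA, with lines for equal values and 2-fold limits. The 6 lincRNAs with a mean above 100 TPM lie within the limits, and 1010001B22Rik at 0 in co-culture lies farthest below them.

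A few lincRNAs made up nearly all of the lincRNA signal. The 126 summed to 18141 TPM in co-culture and 16340 TPM in control, which was 1.81% and 1.63% of each library. Gm26561 (ENSMUSG00000097625) had 13629 TPM in co-culture and 11635 TPM in control, a log2 ratio of 0.23, and was 75.1% and 71.2% of the sum. Without it the sum was 4511 TPM in co-culture and 4706 TPM in control, and the 10 most abundant held 94.9% and 95.2% of the whole. Gm26561 lies on chromosome 17 at 70878078-71393284, plus strand, with 4 exons joined into 1413 bases. Of those bases, 87.0% lie opposite Gm38220, an unverified locus at 0 TPM in co-culture and 0.11 in control. In a search of all GENCODE M21 transcripts, 3272 other genes held a stretch of at least 100 bases alike at 80% or more, and for 3270 of them it fell in the first 200 bases of Gm26561. Such counts were not particular to it, since Lockd had 5366 and Malat1 3897 such genes.

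Several of the other abundant lincRNAs share sequence with abundant coding or structural RNAs, and the sources used here do not say how such reads were divided. Gm26619 had 1151 TPM in co-culture and 1362 TPM in control (log2 ratio -0.24), and 50.4% of its exons lie opposite Gm10260, annotated as coding, at 1558 and 1815 TPM. Gm26825 had 998 TPM in co-culture and 1403 TPM in control (-0.49). It has 1940 bases near-identical, at 98% or more, to Hspa8, which encodes the constitutive heat shock cognate protein and had 1684 TPM in co-culture and 2557 TPM in control. Gm42418 had 221 TPM in co-culture and 271 TPM in control (-0.29), and 99.5% of it lies opposite the ribosomal RNA gene CT010467.1, at 7667 and 6612 TPM. These 3 lincRNAs were lower in co-culture, as were Gm10260 and Hspa8, while the ribosomal RNA gene had a higher value at the deposited scale.

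The remaining abundant lincRNAs had no near-identical stretch in and no exon opposite such an abundant RNA among the transcripts of GENCODE M21. Sequence outside those transcripts was not searched, so sharing with other ribosomal RNA sequence was not tested. The lincRNA 2410017I17Rik is described with the lower lincRNAs. Gm19951, on chromosome 12, had 567 TPM in co-culture and 407 TPM in control (0.48). Gm26624, on chromosome 4, had 318 TPM in co-culture and 184 TPM in control (0.79). Then 4930401O12Rik, on chromosome 13, had 105 TPM in co-culture and 56.2 TPM in control (0.89). All 3 were higher in co-culture under each scaling tried. Gm26917, next to Gm42418 on chromosome 17, had 80.4 TPM in co-culture and 73.0 TPM in control, a ratio of 0.14 that became -0.08 with TMM scaling. The level of 3300005D01Rik was 79.3 TPM in co-culture and 60.4 TPM in control (0.39).

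Genes listed for a described role as noncoding RNAs numbered 92, of which 82 were in the table and 13 belonged to the 126. Some of the rest were detected but left out by their GENCODE biotype, among them Tug1 and Hotairm1 (antisense) and Peg13 (sense intronic). The nuclear architectural RNAs had lower values in co-culture. Neat1, the scaffold of paraspeckles, had 30.8 TPM in co-culture and 42.0 TPM in control, a log2 ratio of -0.44. Malat1, a nuclear speckle RNA usually among the most abundant noncoding transcripts of mammalian cells, had 3.80 TPM in co-culture and 4.62 TPM in control (-0.23). Its mean placed it at rank 58 of the 126, whereas Neat1 was at rank 13. Both genes lie on the minus strand of chromosome 19, Malat1 at 5795690-5802672 and Neat1 at 5824708-5845478.

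Norad, listed as 2900097C17Rik, is a cytoplasmic RNA that binds the Pumilio proteins and is known for keeping chromosome number stable. It had 25.4 TPM in co-culture and 15.2 TPM in control, a log2 ratio of 0.70. The Pumilio element, searched as TGTANATA on the transcript's own strand, occurred 11 times in its 4915 bases, the most of any of the 126. Of the others, 100 had none and 20 had 1. A window of the transcript with 2 elements in capitals, from chr2:156391349-156391468 on the minus strand of GRCm38, shows how they stand.
2900097C17Rik: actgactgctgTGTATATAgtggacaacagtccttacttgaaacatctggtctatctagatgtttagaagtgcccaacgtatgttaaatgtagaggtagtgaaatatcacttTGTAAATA
The same 120 bases, without a mismatch, occur in Gm7292, another of the 126 lincRNAs, at chr6:117717826-117717945 on the plus strand. Gm7292 is 2527 bases long and holds 9 elements. It had 6.35 TPM in co-culture and 5.22 TPM in control (0.24). Reads that lie wholly within the 120 bases cannot be assigned to 1 of the pair from their letters. All 2527 bases of Gm7292 are near-identical to 2900097C17Rik, and whether reads outside the 120 bases tell the pair apart was not tested. The pair summed to 31.7 TPM in co-culture and 20.4 TPM in control, a log2 ratio of 0.61.

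Pvt1, which lies next to the oncogene Myc on chromosome 15 at 62037986-62378096, had 9.76 TPM in co-culture and 24.97 TPM in control. Its log2 ratio was -1.27, and -1.35 with a pseudocount of 0.1. Myc, 47612 bases away and on the same strand, had 103 TPM in co-culture and 189 TPM in control (-0.87). Both were lower in co-culture. The small RNA gene Gm27913 shares 152 bases with Pvt1 and had the other direction, with 47.8 TPM in co-culture and 28.1 TPM in control.

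Of the 13 described lincRNAs 8 had higher values in co-culture, or 61.5%, beside 64.5% of all detected genes. Mirt1, named for its induction after myocardial infarction in mice, had 3.77 TPM in co-culture and 1.36 TPM in control (1.02), and its ratio was 0.92 with median ratio scaling and 0.84 with TMM. Gm14005, known as Morrbid and a repressor of the cell death gene Bcl2l11 in mouse myeloid cells, had 14.3 TPM in co-culture and 7.17 TPM in control (0.91). Bcl2l11 itself had 29.5 TPM in co-culture and 26.0 TPM in control (0.18). At the deposited scale the lincRNA and the gene next to it both had higher values, with the larger ratio in the lincRNA.

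Lockd starts downstream of the cell cycle inhibitor gene Cdkn1b on the same strand, and in mouse erythroid cells its locus acts as an enhancer of that gene. It had 3.86 TPM in co-culture and 1.55 TPM in control (0.93), while Cdkn1b had 31.5 TPM in co-culture and 19.5 TPM in control (0.66). Its promoter window in RefSeq, chr6:134928842-134929141 on the plus strand of GRCm38.p6, shows in capitals a CCAAT box read on the other strand as ATTGG and a TTTGAA element of the kind found in cell cycle promoters.
Lockd: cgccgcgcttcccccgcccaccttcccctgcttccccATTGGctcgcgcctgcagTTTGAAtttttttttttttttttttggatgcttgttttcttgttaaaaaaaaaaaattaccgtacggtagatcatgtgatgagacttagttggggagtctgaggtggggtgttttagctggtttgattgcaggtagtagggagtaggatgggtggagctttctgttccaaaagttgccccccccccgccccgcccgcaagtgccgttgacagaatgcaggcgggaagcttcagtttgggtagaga

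Ptgs2os2, known as lincRNA-Cox2 and studied in mouse macrophages as a regulator of inflammatory genes, had 4.04 TPM in co-culture and 2.13 TPM in control (0.69). Ptgs2, 50816 bases away, had 14.1 TPM in co-culture and 20.5 TPM in control (-0.51), so the pair differed in direction. Dubr, studied in mouse myoblasts, had 7.64 TPM in co-culture and 3.62 TPM in control (0.90). Bvht, studied in mouse heart lineage commitment, had 17.4 TPM in co-culture and 13.0 TPM in control (0.40). Lower in co-culture were Epb41l4aos, with 48.0 TPM against 59.8 TPM in control (-0.31), and Platr27, with 0.39 TPM against 2.25 TPM in control (-1.23, and -2.26 with a pseudocount of 0.1). Lists of well known lincRNAs also held genes below the minimum, among them H19 with 0.11 TPM in co-culture and 0.24 TPM in control, and Meg3, Miat and Hotair, all listed at 0 in both.

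**Figure D3:**
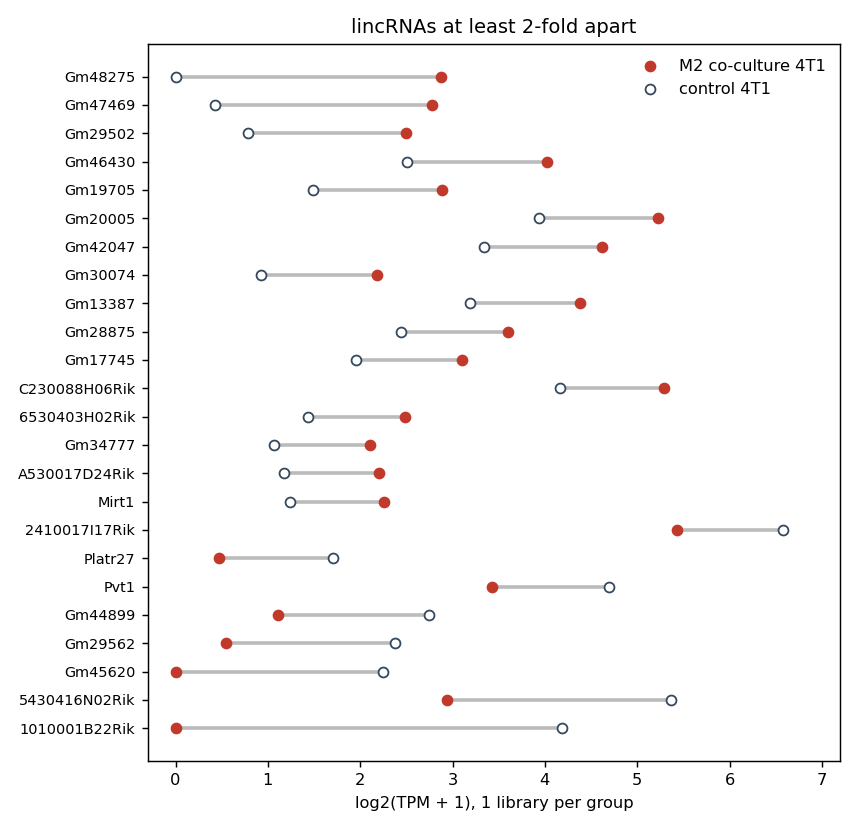
Levels of the 24 lincRNAs at least 2-fold apart, as log2(TPM + 1) on the horizontal axis, 1 line per lincRNA with a point for co-culture and a point for control. The higher lincRNAs are mostly under 10 TPM in control, and 3 of the 24 have a library at 0.

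Of the 16 lincRNAs that were 2-fold higher, Gm47469 and Gm46430 were neighbours. They lie beside each other on the minus strand of chromosome 13, at 74553910-74564256 and 74579358-74617945. Gm47469 had 5.86 TPM in co-culture and 0.34 TPM in control (2.36). Gm46430 had 15.3 TPM in co-culture and 4.69 TPM in control (1.52), and RefSeq classes it as coding. They share a near-identical stretch of 292 bases, and their sum was 21.2 TPM in co-culture and 5.03 TPM in control. The coding gene nearest to Gm47469 is the zinc finger gene Zfp825, with 4.52 TPM in co-culture and 1.44 TPM in control (1.18). The one nearest to Gm46430 is Erap1, which encodes an aminopeptidase that trims peptides for antigen presentation, with 6.45 TPM in co-culture and 3.20 TPM in control (0.83).

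Gm48275 had the highest ratio, 2.88, with 6.34 TPM in co-culture and a listed 0 in control. Its 287 bases on chromosome 10 are identical to the first 287 of the 302 bases of Gm42428 on chromosome 5. Gm42428, also among the 126, had 5.47 TPM in co-culture and 8.51 TPM in control (-0.56). The pair thus differed in direction although only 15 bases tell their transcripts apart, and its sum was 11.8 TPM in co-culture and 8.51 TPM in control (0.43). That sum leaves out Gm43305, a processed transcript near-identical to all 302 bases of Gm42428, with 1.39 TPM in co-culture and 0.99 TPM in control.

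The other strongly higher lincRNAs were free of near-identical copies over most of their length, except Gm42047. Gm20005, of 299 bases on chromosome 5 at 149641610-149647790, had 36.5 TPM in co-culture and 14.3 TPM in control (1.29). It lies 5234 bases from Hsph1, which encodes a large heat shock protein and had 36.4 TPM in co-culture and 25.5 TPM in control (0.50). Gm19705 had 6.38 TPM in co-culture and 1.80 TPM in control (1.40), and the zinc finger gene Zfp281 nearby had 3.01 and 1.25 TPM (0.83). In both pairs the lincRNA and its neighbour had higher values in co-culture.

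Gm17745, on chromosome 10, had 7.58 TPM in co-culture and 2.88 TPM in control (1.14). It lies 24258 bases from Elk3, an ETS family transcription factor gene, with 61.9 TPM in co-culture and 29.6 TPM in control (1.04). Gm34777, on chromosome 10 at 99233117-99243062, had 3.29 TPM in co-culture and 1.10 TPM in control (1.03). It lies 20169 bases from Dusp6 on the same strand, the gene of a phosphatase that switches off ERK kinases, with 49.9 TPM in co-culture and 22.9 TPM in control (1.09). With median ratio scaling Elk3 (0.93), Gm34777 (0.94) and Dusp6 (0.98) were below 2-fold, and with TMM Gm17745 (0.95), Elk3 (0.82), Gm34777 (0.87) and Dusp6 (0.88) were. Gm34777 and Dusp6 were chosen for mention after their values were seen, since the mean TPM of Gm34777 was below 3.

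The promoter window of Gm34777 in RefSeq, chr10:99232825-99233124 on the plus strand of GRCm38.p6, is shown with its 2 CCAAT boxes in capitals, the first read on the other strand.
Gm34777: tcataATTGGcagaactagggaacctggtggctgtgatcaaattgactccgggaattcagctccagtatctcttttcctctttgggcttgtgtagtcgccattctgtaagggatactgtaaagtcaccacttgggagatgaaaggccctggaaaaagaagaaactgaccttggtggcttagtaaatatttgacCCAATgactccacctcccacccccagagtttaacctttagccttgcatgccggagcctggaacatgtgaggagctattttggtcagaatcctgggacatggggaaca

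C230088H06Rik, on the minus strand of chromosome 4, had 38.0 TPM in co-culture and 16.9 TPM in control (1.13). Its span overlaps that of Gm26624 on the plus strand, which was also higher, within a stretch that holds the zinc finger genes Zfp978 and Zfp991. Gm42047 had 23.6 TPM in co-culture and 9.14 TPM in control (1.28), and 95.9% of it is near-identical to transcripts of 5 other genes. Gm13387 had 19.9 TPM in co-culture and 8.13 TPM in control (1.19), and Gm28875 had 11.2 TPM and 4.43 TPM (1.16). The other 5 higher lincRNAs, outside the rule for named genes, were Gm29502, Gm30074, 6530403H02Rik, A530017D24Rik and, as given above, Gm34777. The first of them had 4.65 TPM in co-culture and 0.72 TPM in control (1.72), and the rest had 3.29 to 4.59 TPM in co-culture and 0.90 to 1.71 TPM in control.

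Among the 8 lincRNAs that were 2-fold lower, 1010001B22Rik had the lowest ratio. It was listed at 0 TPM in co-culture and had 17.3 TPM in control (-4.19), and it lies on chromosome 5 at 109995511-109996398, minus strand. Gm45620 was also listed at 0 in co-culture, with 3.73 TPM in control (-2.24). Both are short divergent lincRNAs, of 589 and 468 bases, and the values of their coding partners follow with those of the other divergent pairs.

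The abundant lincRNA with the lowest ratio was 5430416N02Rik, on chromosome 5 at 100420842-100429535, minus strand. It had 6.65 TPM in co-culture and 40.2 TPM in control (-2.43). RefSeq lists it under the synonym Adapt33, a name given first to a transcript induced by oxidants in hamster cells. Sec31a, 4608 bases away and the gene of a coat protein of vesicles leaving the endoplasmic reticulum, had 102 TPM in co-culture and 150 TPM in control (-0.55). The small RNA gene Gm27286 lies opposite 11.3% of its exons and had 29.5 TPM in co-culture and a listed 0 in control, the other direction. The promoter window of 5430416N02Rik, chr5:100429486-100429785 on the minus strand of GRCm38.p6, shows in capitals 2 CCAAT boxes and 1 ACGTG core, read here on the other strand as CACGT.
5430416N02Rik: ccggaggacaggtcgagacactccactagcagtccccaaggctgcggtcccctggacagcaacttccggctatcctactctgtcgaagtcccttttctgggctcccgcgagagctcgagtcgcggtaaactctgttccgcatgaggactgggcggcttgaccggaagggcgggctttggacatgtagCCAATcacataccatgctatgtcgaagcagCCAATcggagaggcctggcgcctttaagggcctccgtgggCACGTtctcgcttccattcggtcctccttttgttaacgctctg

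Another abundant lower lincRNA, 2410017I17Rik, lies on chromosome 17 at 36145018-36163176, plus strand. It had 42.1 TPM in co-culture and 94.5 TPM in control (-1.15), and 27.8% of its exons lie opposite Gm17782, a pseudogene listed at 0 in both. Its promoter window, chr17:36144768-36145067 on the plus strand, ends in an E-box CACGTG, shown in capitals.
2410017I17Rik: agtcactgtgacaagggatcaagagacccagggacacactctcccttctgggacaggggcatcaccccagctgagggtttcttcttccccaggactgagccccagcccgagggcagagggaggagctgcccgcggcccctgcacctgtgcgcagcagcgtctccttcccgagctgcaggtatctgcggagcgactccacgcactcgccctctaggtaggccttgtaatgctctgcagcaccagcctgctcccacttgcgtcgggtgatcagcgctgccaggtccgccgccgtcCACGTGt

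Gm44899 had 1.15 TPM in co-culture and 5.69 TPM in control (-1.64), and 85.7% of it is near-identical to the pseudogene Gm18782. That pseudogene lies opposite 53.9% of its exons and had 0 TPM in co-culture and 0.04 TPM in control. Gm29562 had 0.46 TPM in co-culture and 4.20 TPM in control (-1.83). It shares 75.9% of its bases with other genes, the longest stretch with Gm29084, which had 208 TPM in co-culture and 148 TPM in control. Below these limits stood E330023G01Rik, on chromosome 9, with 11.97 TPM in co-culture and 24.2 TPM in control (-0.96), Gm48522 with 6.53 TPM and 10.8 TPM (-0.65), and the divergent lincRNAs Gm17586 and Gm17501.

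Of the 126 lincRNAs, 18 were divergent, with a start within 5000 bases of a coding start on the other strand and pointing away from it. They had a lower value in co-culture in 11 of 18, with 3 at least 2-fold lower and none 2-fold higher, and a median log2 ratio of -0.12. The other 108 were lower in 30 and higher in 78, with 16 past 2-fold higher, 5 past 2-fold lower and a median of 0.38. Of the 3 lower ones, 1010001B22Rik and Gm45620 passed the minimum only through control. Gm44899 is 85.7% near-identical to the pseudogene Gm18782, which lies opposite it. In a comparison added after seeing the data, of the 13 divergent lincRNAs with at least 1 TPM in both libraries, 9 were lower, 1 was 2-fold lower and the median was -0.15, while of 92 others 24 were lower and the median was 0.37. Under each of the other scalings and pseudocounts tried, 11 of the 18 were lower. Their median was -0.19 with median ratio scaling and -0.26 with TMM. Of the other 108, 31 were lower with a median of 0.27 under the first, and 37 with a median of 0.18 under TMM. With a pseudocount of 0.1, however, 4 of the 18 divergent lincRNAs were at least 2-fold lower and 1 was at least 2-fold higher. The limit of 5000 bases was not varied. Gm20005 (1.29) starts 5234 bases from the start of Hsph1 on the other strand, points away from it and counts among the others. The divergent lincRNAs were low in level, with a median of the mean TPM of 2.08 against 4.25 in the others.

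Their coding partners had higher values in co-culture in 15 of 18, with a median of 0.48 and none past 2-fold in either direction, beside 65.3% higher and a median of 0.17 over all detected coding genes. With median ratio scaling 14 of 18 were higher with a median of 0.37, and with TMM 13 were, with a median of 0.28. In 9 pairs the lincRNA was lower and the coding gene higher, in 1 the reverse, in 6 both were higher and in 2 both were lower. With 11 of the 18 lincRNAs lower and 15 of the 18 partners higher, many opposite pairs arise without any link within pairs. Pearson's r across the 18 pairs was -0.03, so these counts do not show opposite behaviour within pairs. Whether a lincRNA and its partner draw on the same promoter was not measured.

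The values of single pairs are given as a description, first those with the lowest lincRNA ratios, which were picked for that ratio. Beside 1010001B22Rik, listed at 0 in co-culture, the zinc finger gene Zfp932 starts 123 bases away and had 6.49 TPM in co-culture and 3.62 TPM in control (0.70). Arap1, which encodes a regulator of small GTPases, starts 83 bases from Gm45620 and had 14.7 TPM in co-culture and 15 TPM in control (-0.03). Zfp592, beside Gm44899, had 8.78 TPM in co-culture and 5.86 TPM in control (0.51).

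Gm17586 had 2.23 TPM in co-culture and 4.89 TPM in control (-0.87), while Mafg, a small Maf transcription factor gene whose start is 168 bases away, had 33.9 TPM and 34.4 TPM (-0.02). Fam120aos had 1.23 TPM in co-culture and 2.08 TPM in control (-0.47), and its partner Fam120a, the gene of an RNA-binding protein, had 80.1 TPM and 43.0 TPM (0.88). Gm17501 had 2.82 TPM in co-culture and 4.91 TPM in control (-0.63), and Ccn1, which encodes a secreted matrix-associated protein, had 102 TPM and 60.8 TPM (0.73). In the last 2 pairs the coding gene was higher and its lincRNA lower in co-culture.

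Pairs with both members higher were also present. Gm12976 had 5.01 TPM in co-culture and 2.48 TPM in control (0.79), with 53.5 TPM and 33.4 TPM for its partner C77080 (0.66). Gm14230 had 11.3 TPM in co-culture and 7.06 TPM in control (0.61), and Tgif2, a homeobox repressor gene that starts 115 bases away, had 18.5 TPM and 13.8 TPM (0.40).

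**Figure D4:**
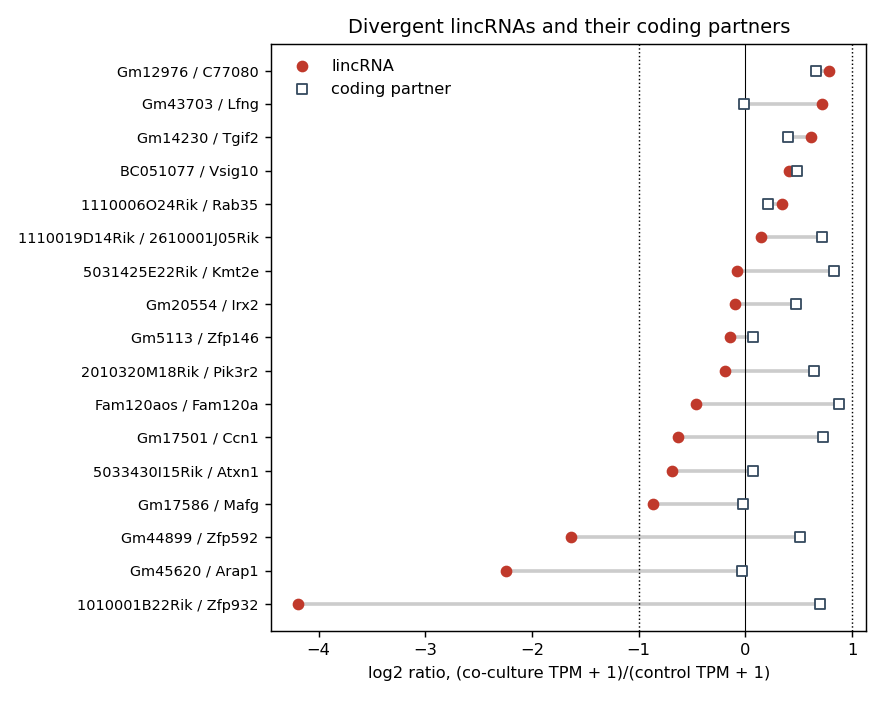
Log2 ratio of co-culture to control (horizontal axis) for divergent lincRNAs and for the coding gene that starts beside each, 1 line per pair, with 1 of the 18 pairs not shown. The coding genes lie between -0.03 and 0.88, while the lincRNAs reach down to -4.19.

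For the lincRNAs that were not divergent, 73 had a detected coding gene as nearest neighbour. The 2 had ratios of the same sign in 44 pairs, 35 of them both higher and 9 both lower, while in 18 the lincRNA alone was higher and in 11 the neighbour alone. Higher values were the more common on both sides, so many pairs share a sign without any link between the 2. The counts of pairs with the same sign therefore do not show that lincRNAs follow their neighbours. Pearson's r across these 73 pairs was 0.31 and Spearman's rho was 0.28. Within 10000 bases, 32 pairs gave 21 with the same sign, an r of 0.35 and a rho of 0.33. The 18 divergent pairs gave 8 with the same sign and an r of -0.03. All pairs come from the same 2 libraries and share their scaling, and genes are not replicates, so these values are a description. Some neighbours were used more than once, with 88 different ones in the 91 pairs of all orientations. In some pairs exons of the lincRNA lie opposite the neighbour itself, as for Gm26619 and Gm10260, and strandedness is not stated.

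Some of the neighbours with the lowest ratios are given with the lincRNA beside them. Akap13, which encodes an anchoring protein of protein kinase A, had 2.54 TPM in co-culture and 17.4 TPM in control (-2.37), while AU020206, 14429 bases away, had 14.2 TPM and 11.1 TPM (0.33). Atf3, a stress-induced transcription factor gene, had 4.88 TPM in co-culture and 28.2 TPM in control (-2.31), while D730003I15Rik, 6415 bases away, had 0.75 TPM and 1.26 TPM (-0.37). Steap1, a metalloreductase gene, had 76.1 TPM in co-culture and 159 TPM in control (-1.05), and Gm26825, 32204 bases away, was lower as well.

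**Figure D5:**
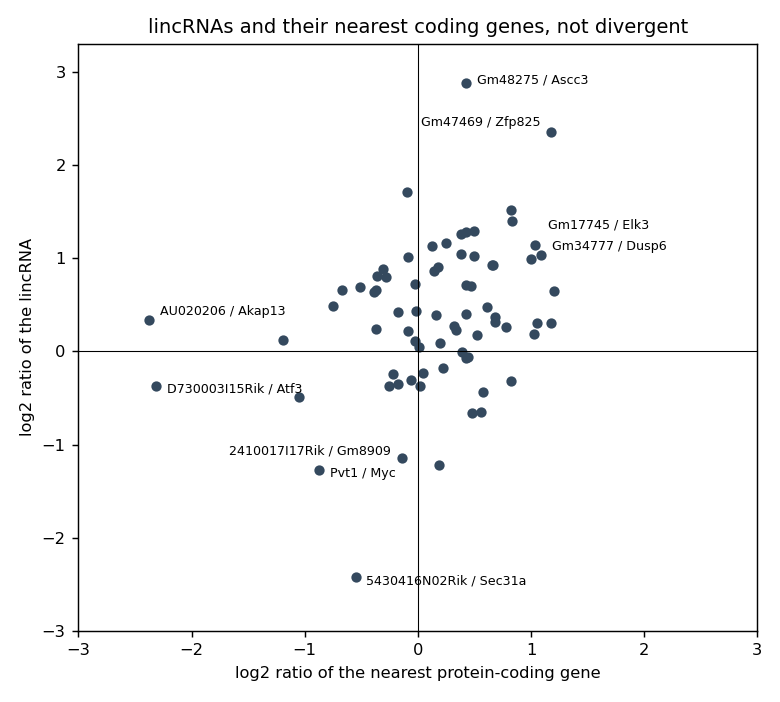
Log2 ratio of each lincRNA that is not divergent (vertical axis) against that of its nearest detected coding gene (horizontal axis), 73 pairs. The pairs Gm17745 with Elk3 and Gm34777 with Dusp6 lie above 1 on both axes as deposited (below 1 on both axes with TMM scaling), and Pvt1 with Myc lies below 0 on both.

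The lincRNAs shared a simple structure. Their longest transcripts ran from 287 bases to the 20771 bases of Neat1, with a median of 1616. The median number of exons was 2 and the highest was 12, in 6530403H02Rik, with 20 lincRNAs of 1 exon, 78 of 2 or 3 and 28 of 4 or more. GC content had a median of 47.7% and ran from 35.3% to 69.1%. The nearest coding gene lay at a median distance of 13134 bases, within 5000 bases for 54 lincRNAs and beyond 100000 bases for 20. The 20 lincRNAs of 1 exon had a higher value in co-culture in 10, with a median of 0.00, while those of at least 2 exons did in 75 of 106, with a median of 0.39.

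Overlap with other genes marked many of them. Exons opposite another gene occurred in 29 lincRNAs and covered at least 50% of 11, and the sources used here do not state the strandedness of the libraries. Those 11 had 4 higher values, 7 lower values and a median of -0.24. A stretch near-identical to another gene's transcript, on either strand, was searched in the longest transcript of each lincRNA only. It occurred in 53 and covered at least 50% of 20, which had a median of 0.10. A gene lying opposite at the same place also counts there, so the 2 kinds overlap. At least 50% of 1 kind or the other was found in 22 lincRNAs. Free of both were 67 lincRNAs, of which 46 were higher, 9 at least 2-fold higher, 2 at least 2-fold lower, with a median of 0.35. The 2 lower ones, Platr27 and Gm45620, passed the minimum only through control, so their direction was set by the rule. Among the 56 of the 67 with at least 1 TPM in both libraries, 7 were 2-fold higher and 0 were 2-fold lower, with a median of 0.35. Over all detected genes, without the need for 1 TPM in both libraries, 4.95% were 2-fold higher and 2.14% were 2-fold lower. Of the 7, those below 2-fold with TMM scaling included Gm28875 (0.96), Gm17745 (0.95) and Gm34777 (0.87). Another of the 7 is Gm46430, which RefSeq classes as coding. It counts as free by its longest transcript, although Gm47469 shares 292 bases with a transcript of Gm46430.

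RefSeq held 77 of the 126 by symbol and classed 70 as long noncoding and 5 as coding. Of the 5, 1810058I24Rik encodes the mitochondrial micropeptide Stmp1 and had 25.3 TPM in co-culture and 20.7 TPM in control (0.28). The span of 2900076A07Rik, with 2.14 TPM in co-culture and 2.22 TPM in control, holds the only microRNA matched within these genes in RefSeq on the same strand, at chr7:81529919-81529940 on the plus strand of GRCm38.p6, printed with its seed in capitals.
mmu-miR-1839-5p: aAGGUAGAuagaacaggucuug

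RefSeq promoter windows, 250 bases before to 50 bases after the start, were held for 60 of the 126, and 52 began within 1000 bases of the GENCODE start. Motifs were searched as exact letters on both strands. ACGTG, the core of the hypoxia element and part of the E-box CACGTG, occurred in 17 of the 52 windows, or 32.7%, beside 19.6% of all 32851 windows. CACGTG occurred in 5, or 9.62%, beside 7.15%. TTTGAA occurred in 16, or 30.8%, beside 17.9%, and CCAAT in 20, or 38.5%, beside 37.4%. The cyclic AMP element TGACGTCA occurred in 3, or 5.77%, beside 1.79%, and the TATA box TATAAA in 3, or 5.77%, beside 13.6%. No window held TGATGNAA, the composite site of ATF4 and CHOP, beside 3.97% of all windows, or TTCGAA, beside 1.56%. The long endoplasmic reticulum stress element (ERSE) was in none of the 52 and in 0.119% of all windows. These are matches of letters and do not show binding.

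Genes whose products act on long noncoding RNA were compared by list. Of 14 paraspeckle protein genes, 11 had higher values in co-culture and 1 was 2-fold higher, with a median log2 ratio of 0.24. Over all detected genes, which serve as the background of each list here, 64.5% had higher values and the median was 0.17. The gene past 2-fold was Sfpq, a core protein of paraspeckles, with 156 TPM in co-culture and 70.5 TPM in control (1.13). Its partner Nono had 229 TPM in co-culture and 189 TPM in control (0.28). These lie beside a lower Neat1, but with TMM scaling 7 of the 14 were higher, 7 lower, the median was 0.02 and Sfpq was below 2-fold.

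All 4 genes of the Pumilio proteins and their Norad partners had higher values, with a median of 0.40, and with TMM scaling 2 of them did. Of 14 genes of Integrator, the complex that cleaves nascent small nuclear and other noncoding RNAs, 11 were higher with a median of 0.37, and Ints8 was 2-fold higher (1.02). Of 11 genes of PRC2, a chromatin repressor complex that binds RNA, 9 were higher with a median of 0.36 and none was past 2-fold. Of 11 genes of the m6A pathway, which methylates RNA on adenosine, 9 were higher with a median of 0.22, and the nuclear reader Ythdc1 had 27.3 TPM in co-culture and 12.9 TPM in control (1.03). Neither Ints8 nor Ythdc1 reached 2-fold with median ratio scaling (0.91 and 0.92) or with TMM (0.81 and 0.82). With TMM the medians were 0.16 for Integrator, with 11 of 14 higher, 0.16 for PRC2, with 7 of 11 higher, and 0.04 for the m6A pathway, with 7 of 11 higher.

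Of 11 detected genes for the end processing of Malat1 and Neat1, mostly subunits of RNase P,, 6 were lower with a median of -0.12 and none was past 2-fold. With median ratio scaling 7 were lower with a median of -0.22, and with TMM 9 were lower with a median of -0.32. Of 23 nuclear exosome and adaptor genes, 16 were higher with a median of 0.15, and of 9 detected microRNA processing genes 6 were higher with a median of 0.19, none past 2-fold in both lists. With TMM scaling the medians of the exosome and microRNA lists were -0.06 and -0.02.

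Markers of the cell types were checked in both libraries. Of 10 epithelial markers 7 were detected, led by Krt8 with 630 TPM in co-culture and 548 TPM in control, while the adhesion genes Epcam and Cdh1, which define epithelium, were at 0 to 0.04 TPM. Of 20 macrophage and myeloid markers 2 were detected, Cd68 with 27.8 TPM in co-culture and 57.7 TPM in control, and Cd14 with 12.4 TPM and 8.87 TPM. The summed level of the 20 was 40.7 TPM in co-culture and 66.8 TPM in control, and Adgre1, Tyrobp, Fcer1g and Ptprc were listed at 0 in both. The 13 M2 markers summed to 1.11 TPM in co-culture and 0.58 TPM in control, with none detected and 10 at 0 in both. Of 12 fibroblast markers 2 were detected, and the list summed to 13.0 TPM in co-culture and 9.29 TPM in control. The part of other cell types in the lincRNA differences was not tested.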

How the data were processed

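RNA was sequenced from 1 library of co-culture 4T1 cells and 1 of control 4T1 cells. The authors deposited TPM values per gene, 1 column per library, and TPM keeps no depth, so the depth is unknown here and no counting intervals are given. HISAT2 2.1.0, RSEM 1.2.31 and the build GRCm38.p5 are named per the submitters' processing notes, without their roles. Strandedness, the annotation release and filters on genes or reads are not stated in the sources. Identifiers were matched to GENCODE M21 (GRCm38), which lacked 279 of them, and 884 rows of assembled loci were set apart.

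From the deposited values, log2((co-culture TPM + 1)/(control TPM + 1)) was computed for every gene, with a pseudocount of 1, and genes past 1 or -1 were counted as 2-fold higher or lower. No p-value or error can be had from 1 library per group. The procedure was tested on simulated data. Near-identical stretches, at 98% or more over at least 75 bases on either strand, came from BLAST+ 2.17.0. The longest transcript of each lincRNA was searched against all GENCODE M21 transcripts. Promoter windows and the microRNA came from RefSeq (GRCm38.p6). Python 3.11.15 with pandas 2.3.3, numpy 2.4.6 and matplotlib 3.10.9 was used.

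Named were the 10 highest and 10 lowest ratios at a mean TPM of at least 3, the 10 most abundant lincRNAs, members with a described role, the 3 nearest genes on each side of the minimum, and the nearest coding genes. Others were named after their values were seen, and 1 coding neighbour that the rule selects is not reported here. The members and the lists were chosen with earlier results of these data known. Alternatives were pseudocounts of 0.1 and 5, other minimum levels, folds of 1.5 and 4, a median ratio scaling on genes of at least 10 TPM, an unweighted TMM with trims of 30% and 5%, a scaling without mitochondrial genes and the 20 most abundant rows, the mean in place of the median, and other memberships.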

Additional observations from a re-analysis of the deposited data

Results flagged for a closer look

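The table also held 884 loci assembled from reads, outside the comparison of annotated lincRNAs, and 651 of them had a mean TPM of at least 1. Of those, 214 were at least 2-fold higher in co-culture and 36 at least 2-fold lower, beside 4.95% and 2.14% of all detected genes with Ensembl identifiers. In control, 29 had a listed 0, and those at 0 in co-culture were not counted. These counts are at the deposited scale only. The loci summed to 64736 TPM in co-culture and 43756 TPM in control. They are pointed out because this signal lies above the control library in data that the report does not use. The table gives them no gene name or position, so how many are noncoding was not measured.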

How the results depend on the processing

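The median stayed above 0 under the alternatives run, but higher calls outnumbered lower ones as deposited, at 16 and 8, and not with TMM scaling, at 8 and 10, or at 4-fold, at 2 and 3. Of the named lincRNAs Gm26917 changed sign, at -0.08 with TMM scaling. The count of 16 lincRNAs at least 2-fold higher became 27 with a pseudocount of 0.1, 5 with a pseudocount of 5, 7 at a minimum mean of 5 TPM, 45 at 1.5-fold, 2 at 4-fold, 8 with TMM scaling, 51 with all long noncoding biotypes and 8 without lincRNAs that overlap another gene. The count of 8 at least 2-fold lower became 4 with a pseudocount of 5, 4 at a minimum mean of 5 TPM, 4 at 1 TPM or more in both libraries, 15 at 1.5-fold, 3 at 4-fold, 29 with all long noncoding biotypes and 4 without overlap. It was also 4 in a choice made after seeing the data, without Gm48275, Gm42428 and lincRNAs below 1 TPM in either library. The median of 0.33 became 0.19 with a pseudocount of 5, 0.043 with no minimum level, 0.16 with TMM scaling and 0.16 with all long noncoding biotypes. All 8 lower lincRNAs passed 2-fold under each scaling, and 8 of the 16 higher ones did with TMM. With a pseudocount of 5, 5 of the 16 and 4 of the 8 passed. No paired analysis was possible because each group has 1 library, and leaving out a library leaves no comparison. Most lincRNAs are below 10 TPM, where an unknown depth limits what a ratio shows.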
